A study of Mus musculus with 8 samples.

Results

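The immunoglobulin variable (V) gene segments are the germline pieces from which the antigen-binding part of every antibody chain is built. The members were the rows of the expression table whose symbol begins with Ighv (heavy chain), Igkv (kappa light chain) or Iglv (lambda light chain) and a digit, which gave 346 of the 52195 genes in the table. Of these, 183 were Ighv, 160 were Igkv and 3 were Iglv. Poly(A) RNA was sequenced from whole kidney, lung, liver and small intestine of male C57BL/6J mice aged 6 to 10 weeks, with 2 libraries per tissue and no treatment or altered allele named. The 4 tissues were taken from each mouse and the libraries of a tissue came from separate mice, but no source used here says that the replicate number marks a mouse. Values are FPKM, fragments normalised for gene length and library size.

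A developing B cell joins 1 V segment to a joining (J) segment, with a diversity (D) segment between them in the heavy chain, and discards or bypasses the rest, so that a V segment is transcribed at a high level only after it has been joined. The chosen heavy and light V segments are carried by all descendants of that cell, and antibody-secreting plasma cells hold very large amounts of their messenger RNA. In the gut wall and the airways plasma cells mostly make immunoglobulin A (IgA), while circulating naive B cells carry IgM and IgD. V segment RNA in a whole tissue therefore shows which rearranged chains its B lineage cells carry, but fewer such cells and less RNA in each of them cannot be told apart.

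The 6 segments on which the description turns are shown by the last 300 bases of their germline coding sequences, to let their likeness and their differences be seen. They were read from the GENCODE M21 transcripts on GRCm38, 5′ to 3′ on the coding strand. The capitals run from the last in-frame cysteine codon to the 3′ end, the stretch that each segment contributes to the third complementarity-determining region, the most variable loop of the antibody. Ighv5-9 (chr12:113661769-113662293, minus strand) and Igkv1-110 (chr6:68270485-68271267, plus strand) were among the 3 highest segments of the lung and kidney libraries numbered 1.
Ighv5-9: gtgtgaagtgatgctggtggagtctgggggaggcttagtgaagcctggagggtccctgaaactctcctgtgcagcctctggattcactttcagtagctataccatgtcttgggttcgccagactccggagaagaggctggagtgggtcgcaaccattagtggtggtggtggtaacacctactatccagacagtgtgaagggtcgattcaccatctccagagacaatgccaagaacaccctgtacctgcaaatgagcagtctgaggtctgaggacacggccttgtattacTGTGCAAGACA
Igkv1-110: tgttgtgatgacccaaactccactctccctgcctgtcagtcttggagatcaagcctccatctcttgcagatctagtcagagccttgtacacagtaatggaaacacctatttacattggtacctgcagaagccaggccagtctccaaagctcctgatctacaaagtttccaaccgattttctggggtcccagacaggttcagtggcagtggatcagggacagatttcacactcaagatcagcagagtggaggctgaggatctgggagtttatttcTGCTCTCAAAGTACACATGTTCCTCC
Ighv3-1 (chr12:113964388-113964818, minus strand) and Igkv6-13 (chr6:70457501-70458036, minus strand) were higher in the lung and kidney libraries numbered 2 than in those numbered 1.
Ighv3-1: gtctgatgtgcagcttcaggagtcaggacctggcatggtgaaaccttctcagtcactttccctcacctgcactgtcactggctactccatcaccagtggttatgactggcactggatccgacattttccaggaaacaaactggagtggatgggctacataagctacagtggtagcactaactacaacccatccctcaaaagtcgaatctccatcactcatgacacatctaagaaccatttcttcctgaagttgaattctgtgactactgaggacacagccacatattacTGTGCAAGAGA
Igkv6-13: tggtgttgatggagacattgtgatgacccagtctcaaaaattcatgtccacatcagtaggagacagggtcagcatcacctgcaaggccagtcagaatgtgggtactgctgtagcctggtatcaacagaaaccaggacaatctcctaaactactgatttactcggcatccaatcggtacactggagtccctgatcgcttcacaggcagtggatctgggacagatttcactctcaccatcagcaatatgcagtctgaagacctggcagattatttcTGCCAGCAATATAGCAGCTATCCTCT
Iglv1 (chr16:19085017-19085500, minus strand) and Ighv1-81 (chr12:115920279-115920712, minus strand) led the small intestine libraries.
Iglv1: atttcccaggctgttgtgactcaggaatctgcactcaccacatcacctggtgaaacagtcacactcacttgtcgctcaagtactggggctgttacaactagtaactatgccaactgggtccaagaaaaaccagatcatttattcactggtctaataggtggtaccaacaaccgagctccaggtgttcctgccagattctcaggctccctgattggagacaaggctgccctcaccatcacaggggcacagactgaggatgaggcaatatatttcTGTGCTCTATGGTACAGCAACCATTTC
Ighv1-81: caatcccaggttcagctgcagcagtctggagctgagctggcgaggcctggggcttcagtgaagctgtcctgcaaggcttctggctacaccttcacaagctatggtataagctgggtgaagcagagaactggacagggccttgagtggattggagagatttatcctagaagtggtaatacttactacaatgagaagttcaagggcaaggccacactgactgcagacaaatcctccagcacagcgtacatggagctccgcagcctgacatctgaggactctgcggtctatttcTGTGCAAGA

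V segment RNA was abundant in lung and small intestine and scarce in kidney and liver. The summed FPKM of all 346 segments was 8177 and 4863 in the lung libraries 1 and 2, and 5433 and 2799 in the small intestine libraries. It was 103.0 and 74.7 in kidney, and 28.9 and 33.7 in liver. The means were 6520 ± 2344 in lung, 4116 ± 1863 in small intestine, 88.8 ± 20.0 in kidney and 31.3 ± 3.40 in liver (SD, n = 2). Every lung and small intestine library lay above every kidney and liver library, and both kidney libraries lay above both liver libraries. The lung mean was 73.4 times the kidney mean and 208 times the liver mean, and the kidney mean was 2.84 times the liver mean. These ratios were smaller under median-of-ratios scaling, where the means were 3542 in lung, 102.2 in kidney and 53.2 in liver. Lung and small intestine could not be put in order, since lung 2 lay below small intestine 1 and the ratio of their means, 1.58, turned over when the libraries were scaled by median-of-ratios factors (3542 in lung and 3807 in small intestine). In share of all FPKM, V segments made up 1.57% and 0.938% in lung and 0.00463% and 0.00540% in liver.

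**Figure D1:**
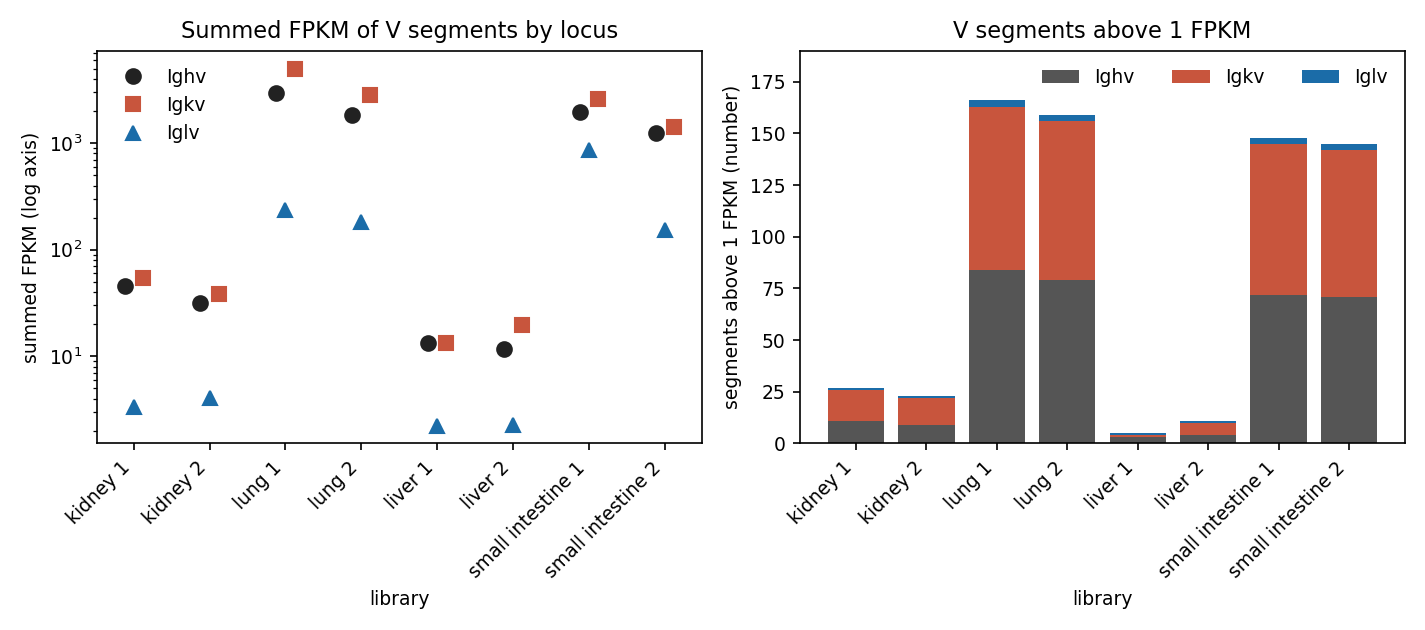
Left, summed FPKM of the Ighv, Igkv and Iglv segments in each of the 8 libraries, on a log axis, and right, the number of segments above 1 FPKM, stacked by locus. Lung and small intestine stand far above kidney and liver in both panels, and Iglv in small intestine 1 rises toward the heavy and kappa sums.

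More segments exceeded 1 FPKM in lung and small intestine than in kidney and liver. Above 1 FPKM there were 166 and 159 segments in lung, 148 and 145 in small intestine, 27 and 23 in kidney and 5 and 11 in liver. In lung and small intestine heavy and kappa segments contributed almost equally, with 84 Ighv and 79 Igkv segments in lung 1 and 72 and 73 in small intestine 1. There were 11 Ighv and 15 Igkv segments in kidney 1, 9 and 13 in kidney 2, 3 and 1 in liver 1, and 4 and 6 in liver 2. Depth limits such counts. A library held between 9164187 and 21444675 reads on genes, as recovered from the steps of its FPKM values, and 3 reads on a segment of the median length of 353 bases corresponded to 0.396 to 0.927 FPKM. The V segments received 30016 and 22349 reads in lung and 18988 and 11736 in small intestine, but 834 and 482 in kidney and 99 and 130 in liver. The kidney and liver values of a single segment therefore rest on few reads. Counted by 3 or more reads in place of 1 FPKM, kidney had 65 and 54 segments and lung had 173 in each library.

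The segments used were nearly all those annotated as functional. Of the 346 members, 216 are annotated as functional V genes, 128 as pseudogenes, and 2 symbols (Ighv5-8 and Ighv1-13), both at 0, each name 2 annotated genes. FPKM was 0 in all 8 libraries for 122 members, of which 103 were pseudogenes and 17 functional. At least 1 library exceeded 1 FPKM for 178 members, of which 176 were functional, and the 2 pseudogenes among them were Ighv1-62 and Ighv1-21-1. Pseudogene reads numbered at most 31 in any library. Iglv1 was the only segment above 1 FPKM in all 8 libraries. V segments resemble each other closely, and in the 164 that entered the test below a median of 47.7% of the 31-base stretches also occurred in another gene. How the authors' counting shared such reads, and reads carrying somatic mutations, is not given in the sources used here, so a value of a single segment may include reads of a near relative.

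Light chain segments exceeded heavy chain segments in every library. Ighv made up 36.1% and 37.7% of the summed V FPKM in lung, 36.1% and 44.1% in small intestine, 44.0% and 42.8% in kidney, and 45.9% and 34.9% in liver. The light-to-heavy ratio ran from 1.18 in liver 1 to 1.87 in liver 2. It was 1.27 and 1.34 in kidney and 1.77 and 1.65 in lung, which did not overlap, while the liver and small intestine libraries spread over most of this range. Among reads, the heavy share was 36.4% in lung 1 (95% Wilson interval 35.9 to 36.9) and 46.5% in liver 1 (37.0 to 56.2), and these intervals cover counting error only. Kappa made up 61.1% and 58.6% in lung and 48.0% and 50.4% in small intestine, and these 2 tissues did not overlap. Lambda was the smallest part everywhere, from 2.85% in lung 1 to 15.8% in small intestine 1.

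The lambda chain set the small intestine apart from the other tissues within its own locus. The mouse has only a handful of V lambda segments, and the table lists 3. Iglv1 held 97.0% and 94.0% of the summed Iglv FPKM in the small intestine libraries, against 65.1% to 74.5% in the other 6 libraries. Iglv1 was measured at 835 and 144 FPKM in small intestine, 152 and 121 in lung, 2.27 and 2.81 in kidney, and 1.67 and 1.49 in liver. Small intestine 1 stood far above the rest, and small intestine 2 lay between the lung libraries. Iglv2 was at 9.05 and 4.34 FPKM in small intestine and 27.1 and 22.9 in lung. Iglv3 was at 16.8 and 4.87 in small intestine and 54.3 and 38.0 in lung. Both were therefore lower in each small intestine library than in each lung library. In the limma fit described below, small intestine minus lung was 1.35 for Iglv1 on the log2(FPKM + 1) scale (SE 0.67, adjusted p = 0.11), −1.82 for Iglv2 (SE 0.31, adjusted p = 0.0013) and −2.18 for Iglv3 (SE 0.46, adjusted p = 0.0044). The call for Iglv3 was lost without lung 1, at −1.93, and the difference was −1.38 without small intestine 2. Median-of-ratios scaling gave −1.07 for Iglv2 and −1.41 for Iglv3. Iglc1, a lambda constant region, was at 2348 and 311 FPKM in small intestine and 169 and 136 in lung, so it was high in the same library as Iglv1.

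**Figure D2:**
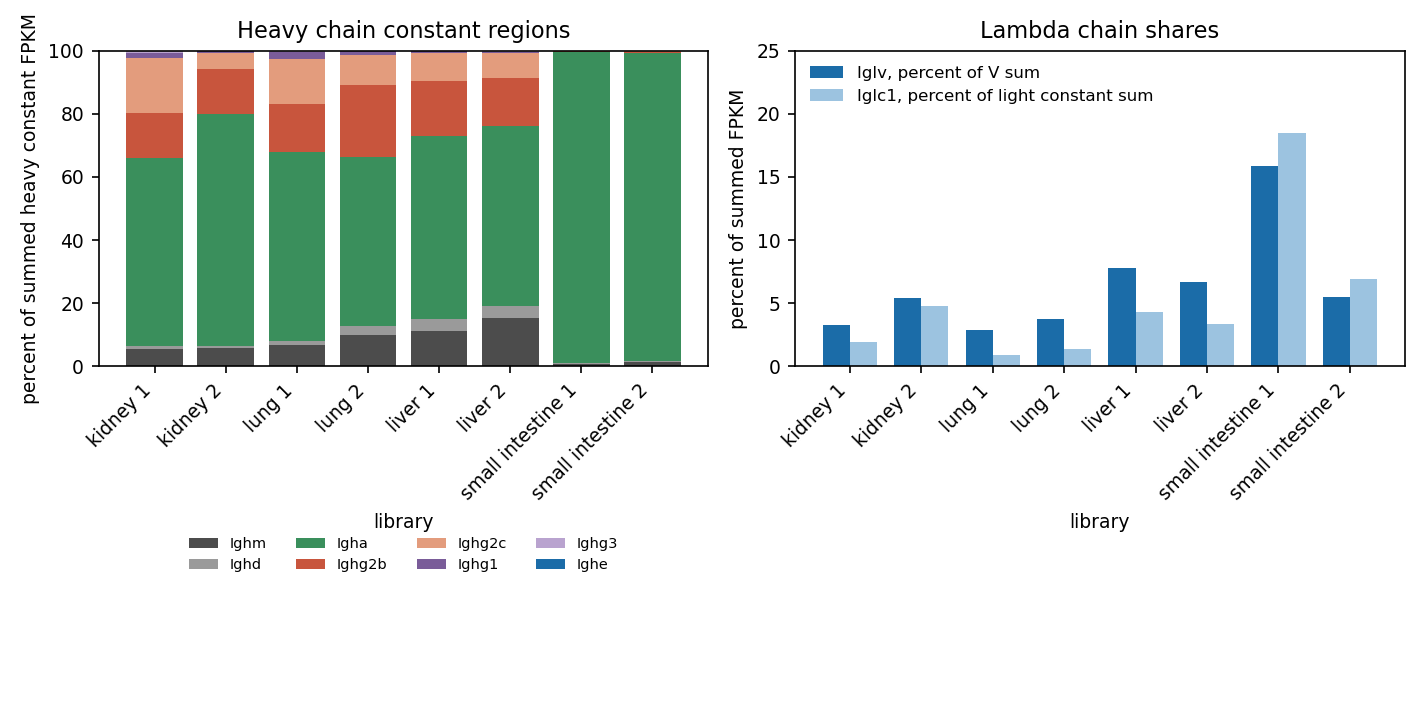
Left, the share of each heavy chain constant region in the summed heavy constant FPKM of each library. Right, the share of Iglv in the summed V FPKM and of Iglc1 in the summed light constant FPKM. Igha fills nearly the whole bar in the small intestine libraries, and both lambda shares are highest in small intestine 1.

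A few segments carried much of the V RNA, and which ones differed between the libraries of a tissue. The highest segment held 15.4% of the V sum in small intestine 1 (Iglv1) and 6.99% in small intestine 2 (Ighv1-81). In lung it was Igkv1-110 with 8.87% in library 1 and Igkv6-13 with 4.93% in library 2. In kidney it was Ighv5-9 with 9.75% and Ighv1-53 with 5.95%, and in liver Igkv5-48 with 8.39% and Igkv1-117 with 6.40%. The 10 highest segments held 40.4% and 29.8% in lung and 55.0% and 42.3% in small intestine. The effective number of segments, the inverse of the summed squared shares, was 38.6 and 60.6 in lung, 21.0 and 40.2 in small intestine, 30.6 and 51.6 in kidney, and 34.7 and 37.2 in liver. In kidney, lung and small intestine alike the library numbered 1 was the more concentrated, and it also had the larger V sum.

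Segments were also summed by family, a group of V segments alike in sequence that is given by the number before the hyphen. Ighv1, the largest heavy chain family, held between 54.5% and 66.4% of the Ighv sum in every library. Ighv5 held 24.8% in kidney 1 and 17.7% in lung 1, but 5.54% to 13.9% in the other 6 libraries. Ighv10 held 14.8% in small intestine 1 and at most 2.29% elsewhere. Among kappa families Igkv1 was highest in small intestine, with 26.3% and 21.9% of the Igkv sum, and Igkv6 was highest in lung 2 with 24.4%. The 29 functional Ighv segments nearest the J segments held 25.1% and 18.9% of the Ighv sum in lung and 13.1% and 12.6% in small intestine. Both lung libraries lay above both small intestine libraries there. In Igkv the 25 functional segments farthest from the J segments held 35.5% and 33.7% in small intestine and 31.8% and 24.8% in lung.

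The libraries of lung and of small intestine had most of their segments above 1 FPKM in common but at different levels, and those of kidney and liver shared fewer. Of the segments above 1 FPKM in lung, 153 were shared, which is 92.2% of the list of lung 1 and 96.2% of that of lung 2. Small intestine shared 135 (91.2% and 93.1%), kidney 12 (44.4% and 52.2%) and liver 2 (40.0% and 18.2%). Shared usage was measured as the sum, over segments, of the smaller of the 2 shares of the V sum, so that 100% stands for identical measured usage. It was 59.9% between the lung libraries, 59.3% between the small intestine libraries, 49.7% in kidney and 44.7% in liver. V reads numbered only 834 and 482 in kidney and 99 and 130 in liver. Few reads by themselves lower the overlap of lists and shared usage, so kidney and liver cannot be ranked against lung and small intestine here. Over the 346 segments, log2(FPKM + 1) correlated between the libraries with a Pearson r of 0.88 in lung and in small intestine, 0.64 in kidney and 0.55 in liver, as a description of points that share a library. Of the 123 segments with 10 FPKM or more in a lung library, 69 differed more than 2-fold between the lung libraries and 31 more than 4-fold. In small intestine 52 of 93 differed more than 2-fold and 21 more than 4-fold. Of those beyond 2-fold, 45 were higher in lung 1 and 24 in lung 2, and 40 in small intestine 1 and 12 in small intestine 2. These differences were not corrected for the V sum, which in library 1 was 1.68 times that of library 2 in lung and 1.94 times in small intestine.

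**Figure D3:**
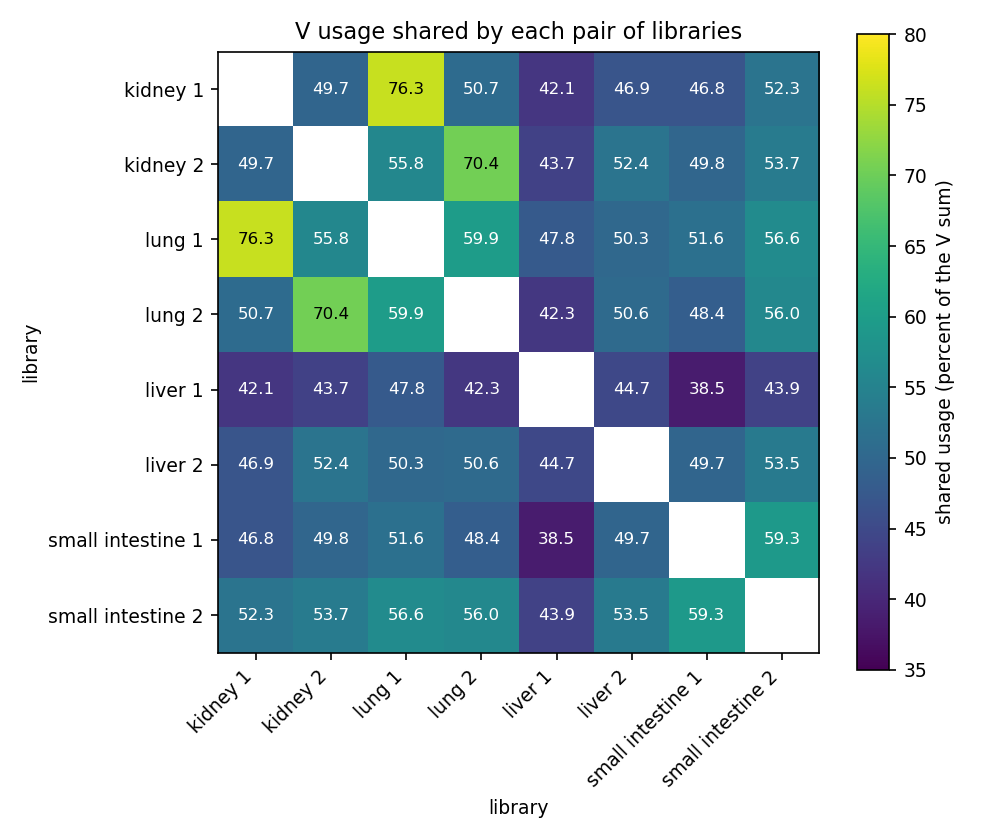
Shared usage of V segments, in percent of the V sum, for each pair of the 8 libraries. The brightest cells are kidney 1 with lung 1 at 76.3% and kidney 2 with lung 2 at 70.4%, above each pair of libraries from the same tissue.

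Kidney shared more of its usage with the lung library of the same number than with the other kidney library. Shared usage was 76.3% between kidney 1 and lung 1 and 70.4% between kidney 2 and lung 2. It was 50.7% between kidney 1 and lung 2 and 55.8% between kidney 2 and lung 1. The pattern was present in Ighv alone, with 76.0% and 70.1% against 51.4% and 56.0%, and in Igkv alone, with 77.5% and 71.1% against 48.0% and 55.7%. Of the 10 highest segments of kidney 1, 8 were among the 10 highest of lung 1, 1 among those of lung 2 and 0 among those of kidney 2. Of the 10 highest of kidney 2, 4 were among those of lung 2, 1 among those of lung 1 and 3 among those of each liver library. In no other pair of tissues did both same-number values exceed both others. The pairs with liver rest on 99 and 130 V reads in liver and could hardly show such a pattern. Over all 12 pairs of different tissues with the same number shared usage ran from 38.5% to 76.3%, and over the 12 with the other number from 42.3% to 56.6%. With 2 libraries a tissue no test of this pattern was made, and it was noticed in these data.

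Segment by segment, the difference between the kidney libraries went the way of the difference between the lung libraries. Ighv5-9 was at 10.0 FPKM in kidney 1 and 1.52 in kidney 2, and at 429 in lung 1 and 89.3 in lung 2. Igkv1-110 was at 9.30 and 1.44 in kidney and 726 and 87.1 in lung. Both were higher in the library numbered 1, from 90 and 80 reads in kidney 1. Ighv3-1 was at 0 and 2.31 FPKM in kidney and 0.585 and 52.0 in lung. Igkv6-13 was at 0.130 and 2.09 in kidney and 2.57 and 240 in lung. These were higher in the library numbered 2, where kidney had 14 and 13 reads. Over the 45 segments with 10 or more reads in each tissue, the log2 ratio of usage, library 1 over library 2, had a Pearson r of 0.78 and a Spearman rho of 0.77 between kidney and lung, and 38 of 45 had the same sign. Between kidney and small intestine r was −0.35 with 15 of 45 of the same sign, and between lung and small intestine r was −0.18 with 64 of 143. These points share 4 libraries in each comparison and are given as a description. On another scale, log2(FPKM + 1), the deviations of kidney and lung from their tissue means correlated with r = 0.60 over 164 V segments. Over all 16328 genes tested they correlated with r = −0.14.

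**Figure D4:**
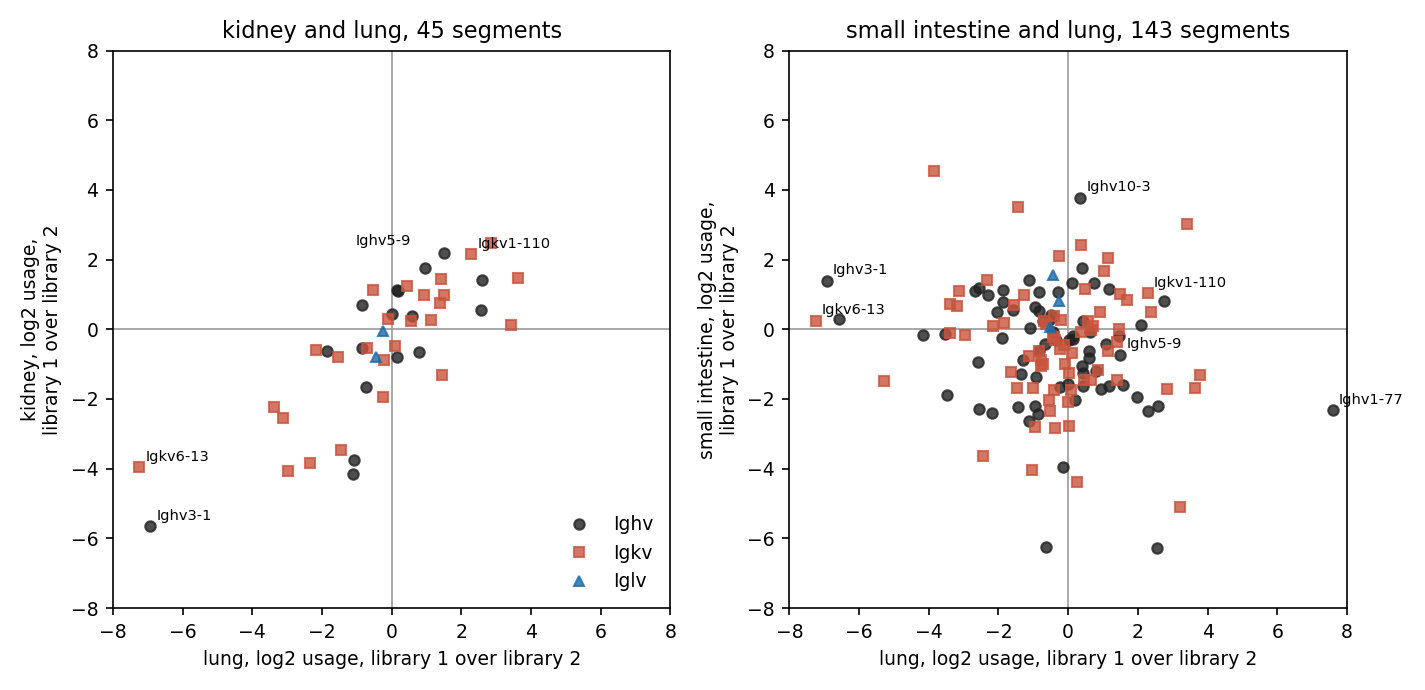
The log2 ratio of usage in library 1 over library 2, for segments with 10 or more reads in each tissue, with lung on the horizontal axis. Kidney (left, 45 segments) follows lung, from Ighv3-1 at the lower left to Ighv5-9 and Igkv1-110 at the upper right, and small intestine (right, 143 segments) does not.

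Levels in the kidney libraries were also set against lung for single genes. Relative to the lung library of the same number, the V sum was 1.26% in kidney 1 and 1.54% in kidney 2. Sftpc, the surfactant protein of alveolar type 2 cells, was at 0.0312% and 0.110%, and Scgb1a1, the club cell secretory protein, at 0.0526% and 0.0876%. Jchain, which links IgA and IgM into polymers, was at 1.32% and 1.88%, and Sdc1 at 3.70% and 3.55%. The 2 lung epithelial genes thus lay below the V sum, and Jchain and Sdc1 above it.

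In the test across all genes, most measured V segments were called higher in lung and lower in kidney and liver. It ran on 16328 genes with 1 FPKM or more in at least 2 libraries, and 164 of the 346 members entered it, 122 of them through lung and small intestine alone. Such members had to differ, so the counts that follow describe the values and add nothing beyond them. Of the 164, limma called 147 higher and 0 lower in lung against the mean of the other 3 tissues (adjusted p under 0.05 and a difference over 1 on the log2 scale), where 40.7% of all genes were called higher and 8.26% lower. Small intestine had 98 higher and 1 lower, where 13.7% of all genes were higher and 11.3% lower. Kidney had 0 higher and 128 lower (8.65% and 16.1% of all genes), and liver 0 higher and 133 lower (6.56% and 32.7%). At an unadjusted p under 0.05 limma also found 0 V segments lower in lung and 0 higher in kidney or liver, and limma-voom called 0 in these directions. The median difference over all genes was 0.82 in lung, −0.34 in kidney, −0.72 in liver and −0.01 in small intestine. It lay between −0.14 and −0.02 under median-of-ratios scaling, with 114 V segments higher in lung, where 14.6% of all genes were. The 1 segment lower in small intestine was Ighv1-56, named after its value was seen, at 0 and 0.252 FPKM against 7.59 and 8.71 in lung, and the call was lost with limma-voom and without small intestine 1.

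The largest differences in lung were in Igkv8-21, at 374 and 148 FPKM against 41.8 to 96.5 in small intestine and at most 2.56 in kidney and liver. Its difference from the mean of the other 3 tissues was 5.10 on the log2(FPKM + 1) scale (SE 0.44, limma adjusted p = 2.6e-05). Ighv5-9 differed by 5.07 (SE 0.67, adjusted p = 0.00026). Igkv8-30 differed by 5.04 (SE 0.75, adjusted p = 0.00049), with 245 and 65.4 FPKM in lung and 66.8 and 8.16 in small intestine, so that these tissues overlapped. In small intestine the largest were Ighv1-81 at 5.22 (SE 0.35, adjusted p = 1.4e-05), Iglv1 at 5.02 (SE 0.55, adjusted p = 0.00018) and Igkv8-27 at 4.67 (SE 1.20, adjusted p = 0.013). Ighv1-81 was at 168 and 196 FPKM in small intestine, 72.1 and 24.3 in lung, 1.33 and 1.48 in kidney and 0 and 0.276 in liver, so small intestine lay above lung, and lung above kidney and liver, without overlap. The Igkv8-27 call rested on small intestine 1, at 394 FPKM against 24.8 in small intestine 2, and was lost without that library, at 2.70. In kidney the largest fall was in Igkv10-96, at 0.130 and 1.45 FPKM (−4.12, SE 0.34, adjusted p = 4.9e-05), and in liver in Igkv1-110, at 0.816 and 1.69 FPKM (−4.84, SE 0.90, adjusted p = 0.0018). The Igkv1-110 call was lost with limma-voom on the recovered reads, at −5.43.

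Small intestine and lung had most segments in common, and a part of them differed in level. Lung 1 and small intestine 2 shared 141 segments above 1 FPKM (84.9% and 97.2% of the lists) and 56.6% of their usage. The other lung and small intestine pairs shared 48.4% to 56.0% of usage, all below the 59.9% between the lung libraries and the 59.3% between the small intestine libraries. In the direct comparison limma called 61 of the 164 lower and 7 higher in small intestine, where 30.6% of all genes were lower and 10.1% higher. The V segment median was −1.01 and that of all genes −0.57. Under median-of-ratios scaling, which brought the median of all genes to −0.01, the counts were 29 lower and 17 higher, where 15% and 15.8% of all genes were called. Ighv8-5 was at 20.0 and 14.4 FPKM in lung and 0.298 and 0.987 in small intestine, a difference of −3.49 (SE 0.24, adjusted p = 1.2e-05). Igkv12-41 was at 31.6 and 24.6 in lung and 2.77 and 1.02 in small intestine, a difference of −3.39 (SE 0.30, adjusted p = 4.0e-05). For both segments each lung library lay above each small intestine library. Of the 7 higher in small intestine, Ighv1-81 differed by 2.08 (SE 0.43, adjusted p = 0.0039), and by 1.32 without lung 2. Ighv10-3 differed by 3.36 (SE 1.21, adjusted p = 0.042) with 179 FPKM in small intestine 1, 6.56 in small intestine 2 and 3.80 and 1.71 in lung. That call was lost without any 1 of the kidney, liver or lung libraries, where the difference ran from 2.94 to 3.77, and also with no filter on low values and with limma-voom. The difference was 1.07 without small intestine 1 and 5.64 without small intestine 2, and it was called in both cases. The other 5, named after their values were seen, were Ighv1-47, Ighv1-58, Ighv10-1, Igkv1-122 and Igkv9-124. The count of 7 became 12 without lung 1, 13 without small intestine 2, and 3 both with no filter on low values and with limma-voom.

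**Figure D5:**
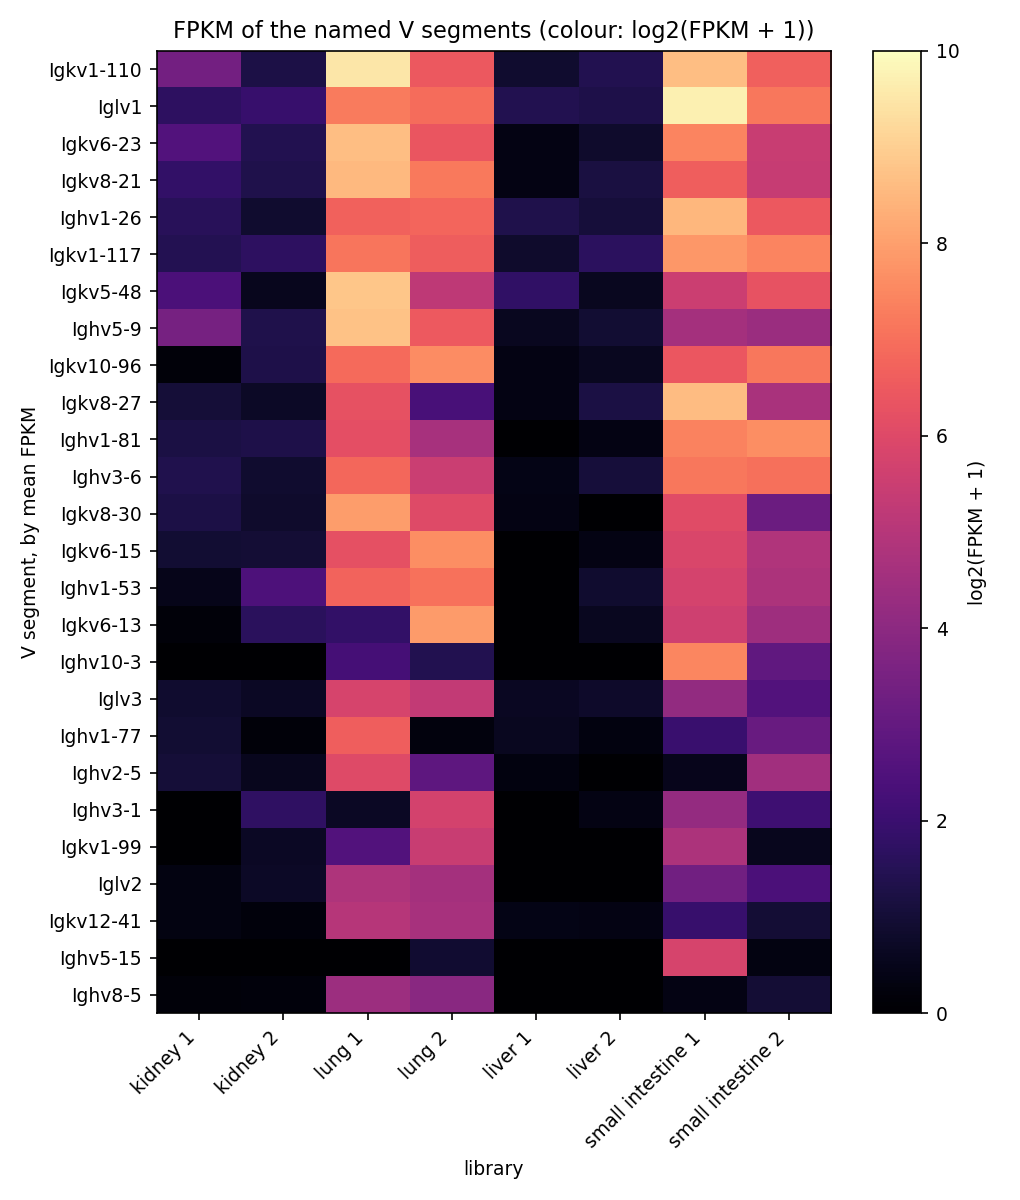
Colour shows log2(FPKM + 1) of the 26 named V segments (rows, by mean FPKM) in each of the 8 libraries (columns). Most rows are brighter in lung and small intestine than in kidney and liver, and rows such as Igkv6-13 and Ighv1-77 in lung and Ighv10-3 in small intestine are bright in 1 library of the tissue only.

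Some segments differed widely between the libraries of a tissue. Ighv1-77 was at 98.1 FPKM in lung 1 and 0.198 in lung 2, and at 0.919 and 0.142 in kidney. Igkv5-48 was at 446 and 36.4 in lung, 4.27 and 0.481 in kidney, 45.7 and 77.3 in small intestine, and 2.42 and 0.538 in liver. It shared no 31-base stretch with another gene. In small intestine Ighv5-15 was at 54.2 and 0.245 FPKM and at most 0.892 in every other library, so it did not enter the test. Igkv1-99 was at 26.4 and 0.470 in small intestine and in the opposite order in lung, at 4.90 and 42.2. Ighv2-5 was higher in small intestine 2, at 0.445 and 22.1, and higher in lung 1, at 65.1 and 6.37. Other leading segments differed less in 1 tissue than in the other. Ighv3-6 was at 141 and 128 in small intestine and 113 and 43.7 in lung, and Ighv1-26 at 104 and 109 in lung and 357 and 87.6 in small intestine. Igkv1-117 was at 229 and 175 in small intestine and 138 and 94.2 in lung.

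The constant regions that rearranged V segments are spliced to differed in class between the tissues. Igha, the IgA heavy chain, made up 98.8% and 97.6% of the summed heavy constant FPKM in small intestine and 53.5% to 73.5% in the other 6 libraries. Ighg2b and Ighg2c, which encode IgG subclasses, made up 15.4% and 14.2% in lung 1, 22.6% and 9.57% in lung 2, 5.24% to 17.7% each in kidney and liver, and at most 0.381% in small intestine. The IgM gene Ighm was at 314 and 277 FPKM in lung and 28.7 and 20.0 in small intestine. In lung 11 of 11 tested constant regions were called higher, where 40.7% of all genes were. In small intestine 5 were called higher and 2 lower, where 13.7% and 11.3% of all genes were.

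Markers of B lineage cells did not all move with the V segments. The 10 B cell markers summed to 207 and 315 FPKM in lung, 23.1 and 20.7 in small intestine and at most 1.64 in kidney and liver. In the limma comparison with the other 3 tissues all 10 were called higher in lung and 0 in small intestine, where 1 was higher and 4 lower at an unadjusted p under 0.05. The shares of all genes called higher in these comparisons were 40.7% and 13.7%. The 10 plasma cell markers summed to 1041 and 705 in lung and 711 and 411 in small intestine, and 9 and 2 of them were called higher, beside the same shares of all genes. Lung 1 had the larger V sum and the larger plasma cell sum, but the smaller B cell marker sum. In liver the plasma cell list summed to 90.3 and 112, of which Xbp1 and Sdc1, not particular to plasma cells, held most (35.3 and 55.9, and 36.7 and 37.6 FPKM), while Jchain was at 3.03 and 2.42 FPKM in liver and 10.4 and 9.20 in kidney. The recombinase genes Rag1 and Rag2, expressed while V segments are being joined, were at or below 0.0365 FPKM in every library. Of the other 4 genes of the precursor B cell list, Vpreb3 was at 29.8 and 28.3 FPKM in lung, where it was called higher, and at most 0.925 elsewhere. Vpreb1, a surrogate light chain gene, was highest in kidney 1 at 1.22, and Dntt and Igll1 stayed at or below 0.564. Vpreb3 was the 1 gene of this list that entered the test. T cell receptor V segments, the 170 counterparts in T cells, summed to 37.8 and 43.0 FPKM in lung, 9.73 and 11.4 in small intestine and at most 2.92 in kidney and liver. The tissue markers followed the labels, with Sftpc at 13440 and 11569 FPKM in lung and at most 16.4 elsewhere.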

How the data were processed

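The deposited table holds FPKM values per gene for 8 libraries, 2 per tissue, made by the authors from libraries that the Tn5 enzyme tagged and that do not mark strand. Per the labels, STAR 2.5.3a and DESeq2 were among the tools used. How the authors counted reads that match several genes is not given in the sources used here. With exon lengths of GENCODE M21 (GRCm38), all nonzero member values were whole reads within 0.02 reads, which gave each library's depth. limma 3.58.1 (R 4.3.3; lmFit, eBayes with trend, two-sided, Benjamini-Hochberg over all genes tested) was run on log2(FPKM + 1) of all 8 libraries with tissue as the group, after a filter of 1 FPKM in at least 2 libraries, and was tested on simulated data. A fold change on this scale understates the change of low genes. Calls needed an adjusted p under 0.05 and an absolute difference over 1. Sums, counts and shares were computed in Python 3.11.15 with no test. Named segments were the 3 highest in each library, the 5 highest Ighv and Igkv and every Iglv by mean FPKM, the 3 per tissue (5 in small intestine) differing most between libraries among those with 10 FPKM, and the 3 largest calls per comparison. Alternatives covered the pseudocount, filter, scaling, mitochondrial genes, trend, block, recovered reads and each library left out. Members and lists were chosen with earlier results of these data known.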

Additional observations from a re-analysis of the deposited data

How the results depend on the processing

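Most differences of named segments held their direction and their side of the threshold. Over all alternatives to 81 such results, 1132 values did so and 83 lost a call with the same direction. Counts, sums and shares lie outside this tally. A count of calls was taken as unchanged within 1.5 times its reported value, so for lung it ran down to 114 under median-of-ratios scaling. A sum or share was taken as unchanged within 1 SD, and those beyond that follow. With mitochondrial genes left out and the rest rescaled, the kidney V sum was 123.8 FPKM. Median-of-ratios scaling gave 3542 FPKM in lung and 53.2 in liver. Above 0.5 FPKM the mean number of segments was 48.0 in kidney and 23.5 in liver, above 2 FPKM it was 10.5 and 1, and with at least 3 recovered reads it was 59.5 and 13.5. Summed by family, which by construction cannot lower it, shared usage was 78.9% in lung, 77.2% in kidney, 73.4% in small intestine and 68.1% in liver, and without the 10 highest segments it was 35.9% in liver. Pearson correlation gave 0.639, 0.877, 0.550 and 0.883 in kidney, lung, liver and small intestine, and Spearman correlation 0.689, 0.901, 0.513 and 0.905, as another scale. Between kidney and lung, usage summed by family was, with the same rise by construction, shared to 85.8% with the same number and 77.0% with the other, in alternatives chosen after seeing the data. The cause of the other shifts was not tested.

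Leaving out 1 library at a time, limma called 94 to 137 V segments for kidney, 127 to 145 for lung, 73 to 107 for small intestine, 106 to 141 for liver and 58 to 75 between small intestine and lung. A tissue left with 1 library was assumed to vary like the others. With the replicate number as a block the counts were 130 for kidney, 149 for lung, 103 for small intestine, 137 for liver and 70 between small intestine and lung, and the pairing check gave correlations over all genes between −0.22 and 0.05, and 0.60 over the V segments of kidney and lung. What the number stands for is not given in the sources used here. Depth limits the kidney and liver values most, since all V segments together had at most 834 reads there, and with 2 libraries a tissue an SD is itself poorly known. Counts over all genes differed by over 1.5 times between settings: with a pseudocount of 0.1, 6290 genes were called in kidney against 4038. In lung 8001 genes were called on the values as deposited and 5009 after median-of-ratios scaling.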
